A study of Mus musculus with 10 samples.

Results

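Long internal exons were taken as exons of 10 or more windows that were neither exon 1 nor the highest-numbered exon of their gene. Only genes with a mean of at least 1 RPKM over the WT input columns were used, and lincRNA entries named after the Guttman set were left out. This gave 57090 of the 1510223 windows in the files. They lay in 2538 exons of 2022 genes, 18.1% of the 11193 genes that passed the same expression filter. The 2538 exons were 2.55% of the 99625 internal exons of these genes, but held 16.1% of their windows. The files give no base positions. Set against RefSeq lengths of 2135 genes with a single exon, 1 window corresponded to about 49.3 bases. The long internal exons had a median of 16 windows (quartiles 12 and 25), against 3 for the short internal exons, and the longest had 350.

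N6-methyladenosine (m6A) is a methyl mark on adenosine inside messenger RNA, placed by a nuclear complex around the METTL3 and METTL14 proteins. It is read by YTH-domain proteins and linked to splicing, translation and the turnover of the transcript. The mark is known to gather around stop codons, in 3′ untranslated regions and inside unusually long internal exons, and to be sparse in the short exons that make up most of a gene.

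RNA of J1 mouse embryonic stem (ES) cells, an established line grown without feeder cells, was fragmented and precipitated with an antibody to m6A (IP), beside unprecipitated input RNA. The 10 libraries formed 5 IP and input pairs: a first pair with no stated genotype, 2 pairs of Mettl3 wild-type (WT) cells and 2 pairs of cells with Mettl3 knocked out (KO). The sources used here do not give the KO allele or say whether the KO cells are 1 clone. They do not describe the replicates as separate cultures either, so the p-values reflect library-to-library spread that may be only technical.

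The readout was the winscore, the log2 of IP over input coverage in a window relative to the same ratio of the gene's median coverages. A winscore of 2 means that IP over input was 4 times that of the gene's medians, after 1 is added to each coverage. The score is relative to each gene, so a loss of m6A spread evenly along a transcript would not appear in it. Mean input coverage of Mettl3 was 12.9 in the first pair, 4.79 and 4.67 in the WT pairs and 3.14 and 3.38 in the KO pairs. It was lower in both KO libraries than in both WT libraries, and Mettl3 RNA was still present there. ES cell markers summed to an input coverage of 1994 to 2759, with both KO inputs (2126 and 1994) below both WT inputs (2681 and 2759). Markers of other cell types summed to 0.171 to 0.834 for mesoderm, 0.255 to 2.28 for endoderm, 6.10 to 17.2 for neural cells and 14.5 to 46.9 for fibroblasts, the last mostly Vim. The neural markers did not move together. Nes was higher in the KO inputs (3.15 and 2.67) than in the WT inputs (0.90 and 0.68). Sox1 was lower in KO (0.54 and 0.36 against 1.22 and 1.03), as was Neurod1 (2.50 and 2.98 against 4.40 and 5.43). Pax6 was low in all of these inputs, at 0.088 to 0.12. The part of these in any result was not tested. IP depth was uneven. Relative to the first IP it was 0.159 and 0.0712 in the WT IPs and 0.0644 and 0.0606 in the KO IPs.

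This depth left many places with no IP coverage at all. The gene's median IP coverage was 0 for 1.65% of the long internal exons in the first pair, 3.11% and 27.7% in the WT pairs and 54.6% and 35.5% in the KO pairs. Whole exons without IP coverage were 0.985%, 1.73%, 4.02%, 8.12% and 4.73% of the long internal exons in the same order. Among the short internal exons these shares were 2.66%, 17.8%, 46.9%, 60.3% and 47.0%. Where a window has no IP coverage, its winscore depends only on its input and on the gene's medians, which bears on the short internal exons in WT replicate 2 and both KO libraries most.

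By the mean winscore over the exon, long internal exons had the highest median of the exon classes compared here. Their median exon winscore was 1.00 in the first pair, 1.34 and 1.60 in the WT pairs and 1.55 and 1.50 in the KO pairs. The short internal exons of expressed genes lay at -0.01, 0.01, 0.22, 0.36 and 0.22. Exons of the same minimum length at the 3′ end of the transcript, where the stop codon and 3′ untranslated sequence usually lie, came in between, at 0.42, 0.69, 0.83, 0.87 and 0.71. The long 5′-end exons had medians of 0.36, 0.79, 1.18, 1.28 and 1.22, below the long internal exons in every library. Outside the first pair their median IP coverage was low, at 1.62 to 2.51 against 10.7 to 13.7 in the 3′-end exons. Their median log2 IP to input ratio was -0.18, 0.07, 0.20, -0.01 and 0.35. That was below the 0.35, 0.78, 0.73, 0.37 and 0.44 of the 3′-end exons in every library.

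**Figure D1:**
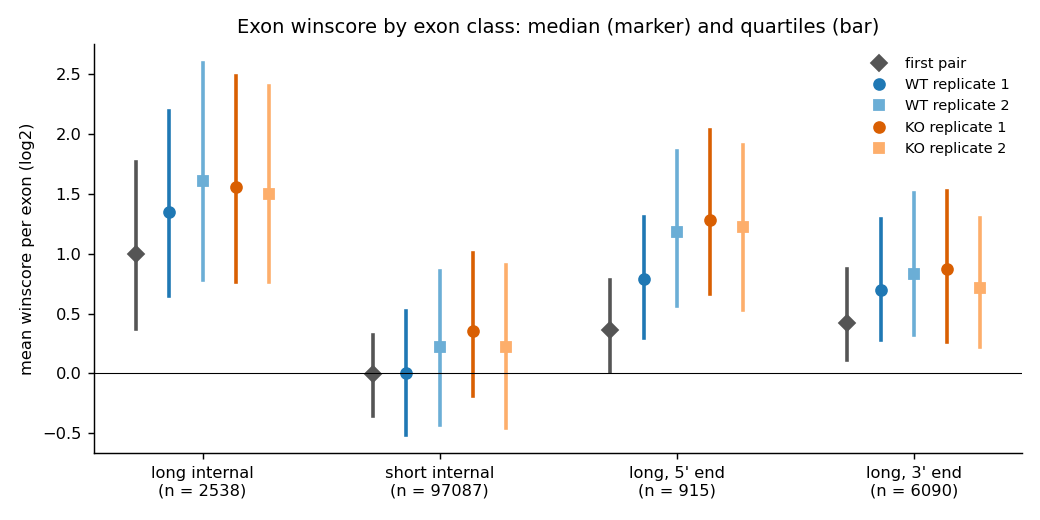
Mean winscore per exon (log2) by exon class in the 5 IP and input pairs; markers are medians over exons and bars run from the lower to the upper quartile. Long internal exons have the highest median in each library, 1.00 to 1.60, and short internal exons lie near 0, at -0.01 to 0.36.

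A winscore of at least 2 was found in 21.0% of the windows of long internal exons in the first pair, where the share over all windows of expressed genes was 7.04%. In WT replicates 1 and 2 the shares were 30.6% and 37.7%, beside 13.1% and 19.2% over all windows. In KO replicates 1 and 2 they were 36.9% and 36.3%, beside 21.6% and 19.2%. Of these high windows in long internal exons, 0% to 4.26% had no IP coverage in the library concerned. A winscore of at least 2 in all 5 libraries was reached by 8166 windows of long internal exons (14.3%), against 4.72% of all windows and 0.301% of the windows of short internal exons. With windows lacking IP coverage removed, 8162 remained.

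Each long internal exon was next set against other exons of its own gene, which share the gene's expression and its medians. Over 1935 genes with both kinds, long minus short internal exons had a median winscore difference of 1.35 in the first pair, 1.75 and 1.89 in the WT pairs and 1.44 and 1.66 in the KO pairs. The mean over libraries was 1.62 ± 0.223 (SD, n = 5), and all 5 were positive. The exact two-sided sign-flip permutation p was 0.0625, the smallest that 5 libraries allow, so the design cannot reach 0.05. The long exons were higher in all 5 libraries in 1582 of the 1935 genes (81.8%) and lower in all 5 in 23. In the 834 genes whose median IP coverage was above 0 in every library the differences were 1.53, 2.05, 2.33, 1.93 and 2.12, and 717 genes (86.0%) were higher in all 5.

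Against the terminal exons the difference was smaller. Long internal minus highest-numbered exons of 10 or more windows gave a mean of 0.899 ± 0.107 (SD, n = 5 libraries, 1006 genes), with library medians of 0.75 to 1.04. Against exon 1 it was 0.905 ± 0.129 (SD, n = 5, 993 genes). Exon numbers in the files follow the genome and not the transcript: the highest-numbered exon was the longer end in 92.2% of 3870 plus-strand genes and in 6.11% of 3800 minus-strand genes. With strand taken from RefSeq, the difference was 0.975 ± 0.155 (SD, n = 5, 1277 genes) against the 3′-end exon and 0.693 ± 0.176 (SD, n = 5, 217 genes) against the 5′-end exon. As a class, the long 5′-end exons had low IP coverage outside the first pair, as given above. Each of these contrasts had an exact permutation p of 0.0625, also after Benjamini-Hochberg adjustment over the 5 contrasts. Genes differed: the 3′-end exon was the higher in all 5 libraries in 193 of the 1277 genes.

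**Figure D2:**
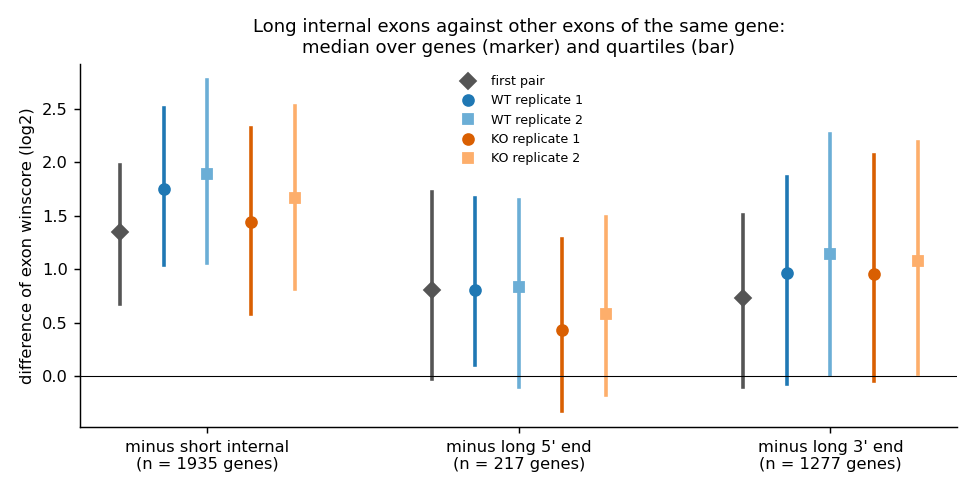
Difference of mean winscore (log2) between the long internal exons and the short internal, long 5′-end and long 3′-end exons of the same gene, in the 5 IP and input pairs; markers are medians over genes and bars are quartiles. All 15 medians are above 0, and the lower quartile is above 0 in every library only against short internal exons.

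The signal depended on length well below the 10-window limit. Exons of 3 or 4 windows had median winscores of -0.06 to 0.29 over the libraries, those of 7 to 9 windows 0.24 to 0.84, those of 10 to 14 windows 0.95 to 1.66 and those of 15 to 24 windows 1.31 to 1.89. Just outside the limit, the 367 exons of 9 windows had medians of 0.48, 0.90, 1.20, 1.07 and 1.06. Just inside it, the 329 exons of 10 windows had 0.58, 1.03, 1.31, 1.13 and 1.12. The limit cuts through a gradient.

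Beyond 24 windows the mean over the exon was lower again, at 1.00 to 1.58 for 25 to 49 windows and 0.42 to 1.05 for 50 or more. The highest window did not follow that course: its median was 2.25 to 3.88 for 10 to 14 windows and 3.14 to 5.26 for 50 or more. A longer exon offers more windows from which to take a highest value. At 50 or more windows the highest window was higher in 3′-end exons than in long internal exons in every library, at 3.60, 4.57, 5.10, 5.55 and 5.06 against 3.14, 3.97, 4.36, 5.26 and 4.59. The median log2 IP to input ratio, which does not use the gene's median, was also lower at 50 or more windows than at 15 to 24, at 0.86 against 1.31 in the first pair, 1.35 and 1.41 against 1.92 and 1.94 for WT, and 1.17 and 1.25 against 1.61 and 1.85 for KO. In the 137 exons that held at least 50% of their gene's windows the median winscore was 0.25 to 0.62. Their log2 ratio of IP to input, centred on the library's short internal exons and free of the gene's median, was 1.60 to 2.95, close to the 2.02 to 3.08 of the exons holding 25% to 50%.

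**Figure D3:**
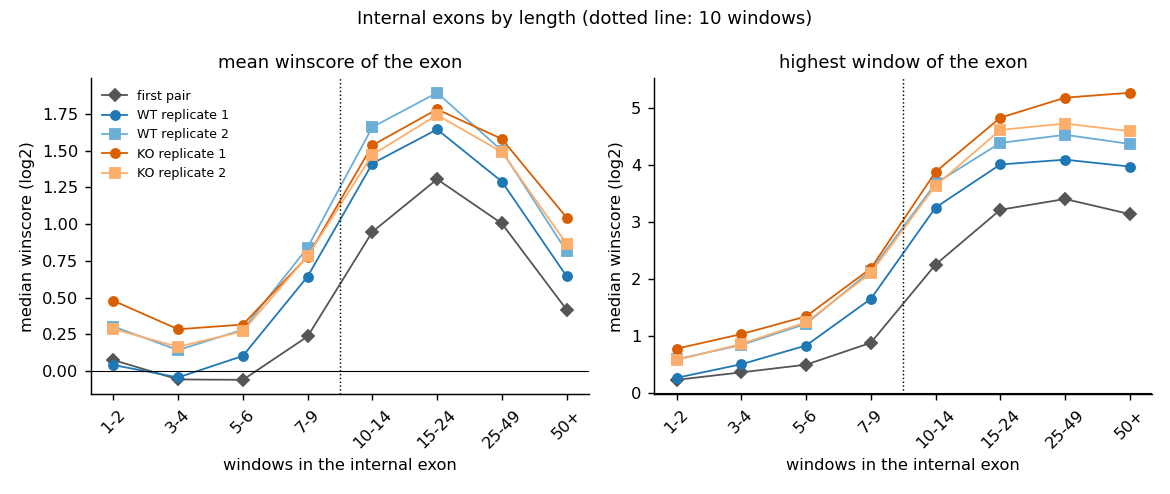
Internal exons by number of windows in the 5 IP and input pairs: the median over exons of the mean winscore (left) and of the highest window (right), both log2. The mean peaks at 15 to 24 windows, at 1.31 to 1.89, whereas the highest window stays above 3 in every library from 15 windows on.

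The winscore climbed over the first windows of the exon. Among the 635 exons of 20 or more windows with a known strand, the first window at the 5′ end had a mean winscore of 0.16 in the first pair, 0.17 and 0.38 for WT and 0.65 and 0.37 for KO. By the fifth window it was 1.14, 1.55, 1.79, 1.75 and 1.59. The 3′ end mirrored this, from 0.53 to 1.05 in the last window to 1.25 to 1.91 in the fifth from the end. Input coverage was low in the end windows, at -0.53 to -0.60 (log2 over the gene's median) in the first and -0.62 to -0.83 in the last, and its part in the profile was not tested.

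**Figure D4:**
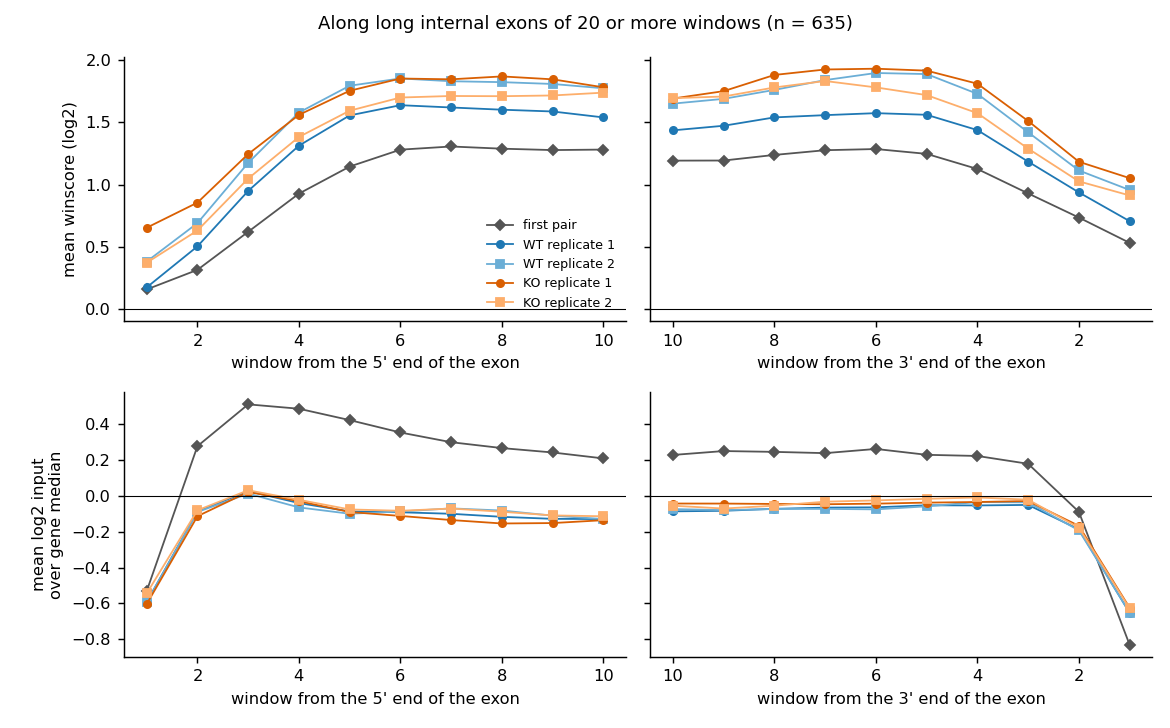
Mean winscore (log2, top) and mean log2 input coverage over the gene's median (bottom) by window from the 5′ end (left) and the 3′ end (right) of 635 long internal exons of 20 or more windows, in the 5 IP and input pairs. The winscore climbs over the first 5 windows to 1.14 to 1.79, while input coverage is lowest in the end windows.

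Within single exons the same held for most but not all. In 891 exons of 20 or more windows, windows with at least 5 others between them and either end were higher than the first and last 2 windows by a median of 0.63, 0.83, 0.89, 0.74 and 0.85. The inner windows were the higher in 71.9% to 78.3% of the exons. Short internal exons directly beside a long one were little above the other short exons of the gene, by a median of 0.10 to 0.28 in 1760 genes.

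Place in the transcript also went with the level. The 273 long exons next to the last exon had median winscores of 0.59, 0.92, 1.09, 1.06 and 1.14. The 1219 between the second and the next-to-last exon had 1.12, 1.47, 1.80, 1.68 and 1.62, higher in every library at the same median length of 16 windows. The other second exons (386, median 14 windows) lay at 1.02, 1.37, 1.59, 1.62 and 1.46. The 55 exons that were both second and next to last were counted as next to last.

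Enrichment came in short stretches. A run was defined as at least 2 neighbouring windows with a winscore of 2 or more. The first IP, the deepest, had 2191 runs in 1589 long internal exons (62.6%), while 8.82% of all exons of 3 or more windows held one. The median run was 4 windows (quartiles 3 and 7), and 1148 exons had 1 run, 321 had 2 and 120 had 3 or more. An edge of the exon was touched by 14.6% of the runs, and by 17.9% to 24.4% of those in the WT and KO libraries. In WT replicates 1 and 2 a run was present in 77.0% and 83.5% of the long internal exons (16.1% and 22.5% of all), and in KO replicates 1 and 2 in 82.9% and 82.7% (26.8% and 24.6% of all). A longer exon offers more places for a run, and the shares over all exons were not matched for length. Internal exons of 3 or 4 windows alone numbered 53149.

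The runs of the first IP could be read in the other libraries, which took no part in defining them. Their mean winscore was at least 2 for 91.9% and 92.4% of the 2191 runs in the WT pairs and for 85.2% and 88.0% in the KO pairs. Their median was 3.33 and 3.69 for WT and 3.64 and 3.52 for KO. A mean under 1 was found for 22 and 28 runs in WT and for 140 and 67 in KO. Runs in all 5 libraries were present in 1489 exons (58.7%, against 8.04% of all exons of 3 or more windows, not matched for length). A run was present in no library in 191 exons (7.53%), with no share over all exons to set beside it. The 1489 were longer (median 18 windows against 12) and in genes with a median of 5.04 RPKM against 3.67.

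At the level of single exons, the lowest of the 5 mean winscores was above 0 in 2059 of the 2538 exons (81.1%, background 29.6% of exons of 3 or more windows), above 1 in 1051 (41.4%, background 4.65%) and above 2 in 344 (13.6%, background 0.902%). The highest of the 5 was below 0 in 55 (2.17%), with no share over all exons to set beside it. Across the 2538 exons the winscores of 2 libraries correlated with Pearson r from 0.725 (first pair and KO replicate 1) to 0.918 (the 2 WT pairs). These are descriptions over exons that share genes and libraries.

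A test against 0 across all exons gave a less stable answer. With limma on the WT and KO libraries, 886 of the 2538 long internal exons (34.9%) were above their gene's median in WT at an adjusted p of 0.05, while 4.91% of 85491 exons were. The same call took 1.80% of the short internal exons, 12.7% of the long 3′-end exons and 11.4% of the long 5′-end exons. Longer exons average more windows, and the part of this in the shares was not tested. A single long internal exon was below its gene's median, beside 0.392% of all exons. The count of 886 moved with single libraries: it was 0 when either WT library was left out, and 1489 or 1472 when KO replicate 1 or KO replicate 2 was. Over all exons the share was 13.9% and 13.7% without those KO libraries. The count was also 0 with 0.5 in place of 1 added to each coverage. The 3 middle windows of each exon gave 850 (4.57% of all exons).

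The strongest long internal exon by its lowest library was exon 18 of Rev1, a translesion DNA polymerase. Its mean winscore was 4.43 in the first pair, 5.61 and 6.20 for WT and 7.58 and 6.38 for KO, and in the last 4 libraries all of its windows were at least 2. IP coverage there was 306 in the first pair and 179 to 238 in the others, and input coverage in those others was 9.35 to 10.9. The 20 short internal exons of Rev1 averaged 0.07, 0.19, 0.15, 1.13 and 0.80. Both KO values lay above both WT values, and the difference of 1.07 ± 0.70 (SE) did not pass the test.

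The other 9 exons in this order, all in genes of at least 5 RPKM, had a lowest library of 3.65 to 4.21. Exon 21 of Usp47, a deubiquitinase, had 4.21, 5.14, 6.26, 6.65 and 5.31. Exon 5 of Tmem2, a cell-surface hyaluronidase, had 4.14, 4.88, 5.87, 5.13 and 4.73, and its highest window was the fifth in 4 of the 5 libraries. Exon 16 of Wdr33, a polyadenylation factor, had 3.68, 4.02, 4.94, 4.70 and 4.11. The rest were exon 3 of Stk35, a kinase, exon 17 of Arhgap12, exon 10 of the endocytic adaptor Epn2, exon 11 of Ankle2, exon 8 of the F-box gene Fbxo38 and exon 20 of the centrosome gene Cep192. KO minus WT ran from -0.44 to 1.07 over the 10, and none passed the test.

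At the other end, 4 exons in genes of at least 5 RPKM were lowest by their highest library. Exon 3 of Klf3, a zinc finger repressor, had -1.58, -1.39, -1.81, -1.03 and -1.67. Exon 2 of Foxo4, a forkhead factor, had -0.78, -1.52, -1.27, -0.94 and -1.86. Exon 4 of Zfp57, which keeps imprints methylated, had -0.78, -0.82, -2.20, -1.53 and -1.67. Exon 3 of L1td1, an RNA-binding protein gene of ES cells, had -0.61, -1.34, -1.69, -1.23 and -1.45, but its log2 IP to input ratio centred on short internal exons was 1.98, 3.34, 3.33, 3.65 and 3.06. Its IP coverage was 167 to 232, so a low winscore there stands beside a high IP to input ratio.

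The 5 longest members had mean winscores of -0.10 to 1.80. Exon 5 of Ahnak, which encodes a giant scaffold protein, had 350 windows, 93.8% of its gene. Its mean winscore was 0.25, 0.16, 0.42, 0.57 and -0.05, yet its highest window was number 307 in all 5 libraries, at 4.52, 4.40, 4.63, 5.44 and 4.89. Exon 3 of Prdm2 (173 windows) had means of 0.67, 0.49, 0.47, 1.80 and 0.80 and 6 to 11 runs. Exon 6 of Map1a, a microtubule-associated protein gene (163 windows), had 4 to 12 runs, and exon 5 of the corepressor gene Spen (161 windows) had 3 to 8. Exon 10 of the imprinted noncoding RNA Meg3 (200 windows) had means of -0.00, -0.10, 0.49, 0.62 and 0.64 on an IP coverage of 0.90 to 1.73, with 1 to 11 runs. The WT means of the centred log2 IP to input ratio were 2.19 for Ahnak, 3.17 for Prdm2, 3.22 for Map1a, 3.64 for Spen and 1.53 for Meg3.

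**Figure D5:**
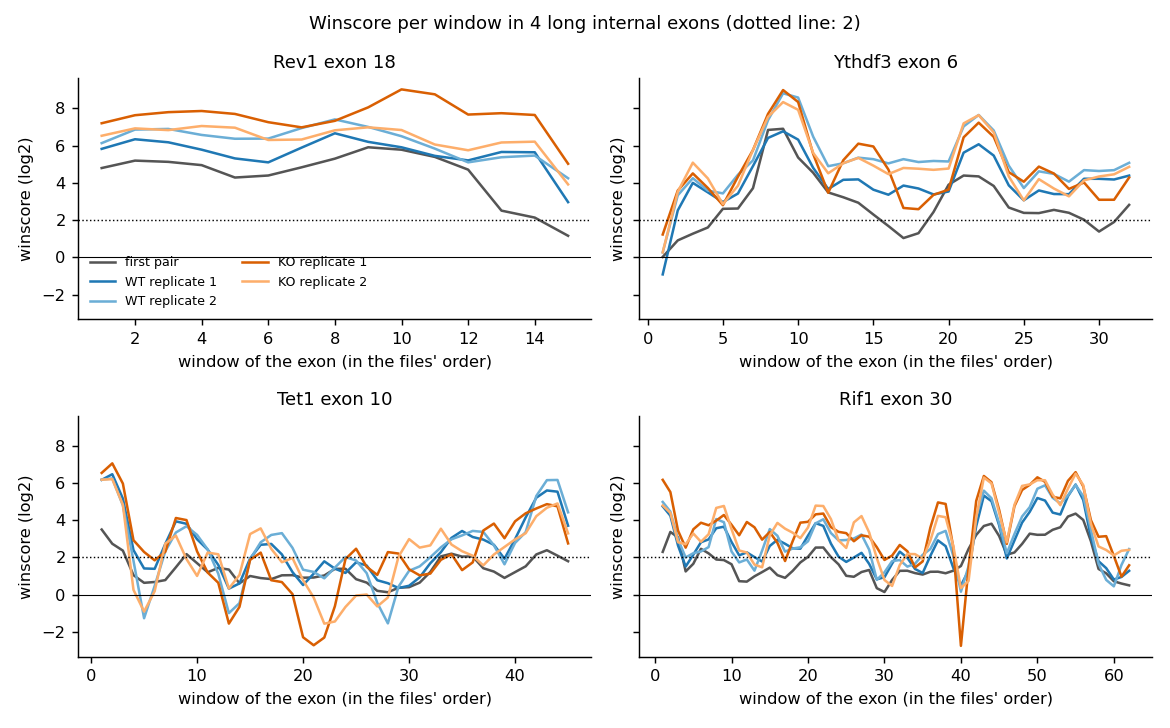
Winscore (log2) along 4 long internal exons, window by window in the order of the files, in the 5 IP and input pairs; the dotted line is a winscore of 2. Rev1 exon 18 is above 2 in every window of 4 libraries and in all but the last window (1.16) of the first pair, Ythdf3 exon 6 peaks at window 9 in every library, and Tet1 exon 10 and Rif1 exon 30 hold several separate peaks.

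Among the m6A writers, erasers and readers, 7 of 19 expressed genes had a long internal exon, and 8 of their 12 exons were above 1 in all 5 libraries. Exon 6 of Ythdf3, encoding a cytoplasmic m6A reader, had 2.87, 4.05, 5.14, 4.70 and 4.88, and window 9 was its highest in every library, at 6.90, 6.77, 8.81, 8.98 and 8.34. Exon 2 of Ythdf2, the reader linked to decay of marked RNA, had 2.04, 3.22, 2.99, 2.76 and 2.36, with its highest window at number 4 throughout. Exon 2 of Ythdf1, the third reader of this family, had 1.90, 1.43, 1.23, 2.01 and 1.91.

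Exon 3 of Fto, a demethylase gene, had 2.75, 2.53, 3.07, 3.23 and 2.01. Exon 14 of the writer-complex gene Zc3h13 had winscores of -0.23 to 0.28. Exon 3 of Wtap, also of the writer complex, had 90 windows, a mean of 0.07 to 0.61 and a highest window at number 75 in all 5 libraries, at 5.95 to 7.16. The WT mean of the centred log2 IP to input ratio was 2.94 for exon 14 of Zc3h13 and 4.69 for exon 3 of Wtap, so both were precipitated above short internal exons although their winscores were low.

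Of the Tet and DNA methylation genes, 5 of 15 expressed had such an exon, with 3 of 5 exons above 1 in all libraries. Exon 10 of Tet1, the main 5-methylcytosine oxidase of ES cells, had 1.33, 2.51, 2.40, 2.10 and 2.02 over 45 windows and 3 to 6 runs. Exon 9 of Tet2 (65 windows) had 0.34, 0.35, 0.42, 0.58 and 0.77, with a WT mean of the centred log2 IP to input ratio of 2.10. Exon 6 of Mbd4, a DNA glycosylase gene, had 2.84, 3.32, 3.17, 2.85 and 3.52. Exon 39 of Dnmt1 had 1.39 to 2.27, but on an IP coverage of at most 3.02 in the first pair and at most 0.704 in the others, so little IP signal stands behind it.

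Of the naive pluripotency genes, 13 of 28 had a long internal exon, and 5 of 15 exons were above 1 in all 5 libraries, beside 41.4% of all members. Exon 30 of Rif1, a replication timing and repair gene, had 1.93, 2.78, 3.02, 3.67 and 3.52 over 62 windows, with its highest window at number 55 throughout. Exon 3 of Klf4 had 0.52, 0.50, 0.47, 0.47 and 0.61, exon 2 of Klf5 0.14 to 0.94 and exon 2 of Klf2 -0.55 to 0.67. Exon 3 of Sall4 (48 windows) had a mean of 0.42 to 0.94 and a highest window at number 41 in every library, at 5.19 to 5.84. The centred log2 IP to input ratio does not use the gene's median. Its WT means for exon 3 of Klf4, exon 2 of Klf5 and exon 3 of Sall4 were 3.97, 3.28 and 3.16. For exon 2 of Klf2 the WT mean was 1.82. The median long internal exon lay at 2.77 and 3.10 in the WT pairs, above exon 2 of Klf2 and below the other named exons.

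In the Polycomb and Trithorax list, 16 of 34 expressed genes had 38 such exons, 16 of them above 1 in all 5. Exon 8 of Jarid2, a cofactor of Polycomb repressive complex, had 1.24, 2.35, 2.97, 2.04 and 2.30 with its highest window at number 8 throughout. Exon 8 of Phc1 had 0.35, 2.09, 2.38, 1.44 and 1.95, low only in the first pair. Exon 9 of Aebp2 (95 windows) lay at -0.22 to 0.46, and exon 5 of Kdm2b at -0.15 to 0.73. Their WT means of the centred log2 IP to input ratio were 1.09 and 1.22.

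RNA surveillance and splicing scaffold genes had 21 of 32 exons above 1 in all 5, in 22 of 29 expressed genes. Exon 2 of Ddx6, a helicase of mRNA storage and decay, had 3.26, 3.97, 4.62, 4.56 and 3.94 and its highest window was the third in every library. Exon 10 of the splicing scaffold gene Srrm2 (132 windows) lay at 0.12 to 0.43, with a WT mean of the centred log2 IP to input ratio of 1.91.

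Genome integrity genes had 22 of 30 exons above 1 in all 5, with exon 20 of the helicase gene Blm at 3.38, 3.33, 4.40, 5.03 and 4.13 and exon 4 of the mismatch repair gene Msh6 at 1.07 to 1.45. Centromere, kinetochore and spindle genes had 17 of 35, with exon 3 of the cohesin protector gene Sgol1 at 3.04, 3.46, 3.98, 3.93 and 3.15 and exon 3 of Mki67 (137 windows) at -0.23 to 0.25. Chromatin remodelling genes had 15 of 26, with exon 7 of Baz1b at 1.57 to 2.54. Imprinted genes had 0 of 4. Over all members the share was 41.4%, and the lists were short and their genes chosen with results known. The WT mean of the centred log2 IP to input ratio of exon 3 of Mki67 was 2.94, beside its low winscore.

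Exons of 1 gene did not all match. Of the 2022 genes, 1630 had 1 long internal exon, 301 had 2 and 91 had 3 or more. In the 392 with at least 2, the WT mean winscore ranged over a median of 1.03, against a median difference of 0.370 between the WT replicates of an exon. Dst, encoding a spectraplakin, had the most, with 7 exons at 0.42 to 1.39 in the first pair. Mga, a transcription factor gene, had exon 17 at 1.86, 2.44, 2.73, 1.96 and 3.06 and exon 13 at -0.07, -0.34, -0.82, -1.39 and -0.44, with no overlap between the 2 exons. Of the 5 in Dido1, exon 14 was at 0.26 to 0.71 and exon 11 at -1.15 to -0.29. The 6 exons of Mll2, a histone H3 lysine methyltransferase gene as named in the files, were all above 0 in every library, from 0.36 to 2.11.

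No long internal exon passed the test of KO against WT, and the order of the genotypes in the level over all of them depended on the measure. The library medians were 1.34 and 1.60 for WT and 1.55 and 1.50 for KO, so both KO values lay inside the WT range. KO minus WT was 0.05, with an exact two-sided permutation p of 1 where 2 against 2 cannot go below 0.333. Other measures separated the libraries by genotype, but not in 1 direction. The highest window had medians of 3.72 and 4.10 in the WT pairs and 4.56 and 4.22 in the KO pairs, a difference of 0.48. This rise was not particular to long internal exons. Taken exon by exon, its median was 0.42 in them and 0.34 over all 85491 exons. The difference was -0.13 after subtracting the library's median of short internal exons, -0.27 for long minus short exons within genes and -0.17 for the centred log2 IP to input ratio, each with p = 0.333 in the exact permutation test. Exon by exon, the median with the gene's short internal exons subtracted was -0.23 in long internal exons and -0.04 over all exons. For the centred log2 ratio it was -0.10 and -0.01. Short internal exons, the reference in both, made up 63147 of the 85491 exons. In genes with a median IP coverage above 0 in every library the difference in winscore was 0.10, while long minus short exons within such genes were 2.05 and 2.33 in the WT pairs against 1.93 and 2.12 in the KO pairs, which overlap.

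Exon by exon, limma called 0 of the 2538 long internal exons and 0% of 85491 exons at an adjusted p of 0.05. At an unadjusted p of 0.05 it gave 21 of the 2538 long internal exons higher in KO and 14 lower. Over all 85491 exons, not matched for length, it gave 4224 higher (4.94%) and 1342 lower (1.57%), both larger shares. The absence of calls carries little information: in simulated data with known changes of several log2 units this test at 2 against 2 libraries made no calls of them either. The 95% confidence interval of the difference had a median reach of 1.29 to either side (quartiles 1.16 and 1.45). It lay wholly above -2 in 2291 exons, wholly above -1 in 840 and wholly below -1 in 1. There are no such counts over all exons to set beside these, so they describe precision and no trait of long internal exons. An even loss of m6A along a transcript would not appear in them.

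The 6 exons lowest in KO by limma p had adjusted p values of 0.761 and did not pass. Exon 2 of Tgif1, a homeobox corepressor gene, had -0.79 in the first pair, 0.82 and 0.91 for WT and -1.53 and -1.15 for KO, a difference of -2.20 ± 0.40 (SE). Exon 6 of Tor1aip2, encoding a torsin activator, had 1.35, then 2.39 and 2.72 for WT and 0.74 and 0.60 for KO, with IP coverage of 14.4 and 13.4 against 3.09 and 3.65 on similar input. In both exons the groups did not overlap, which choosing exons by their limma p favours. On the centred log2 ratio of IP to input the difference was -0.72 for Tgif1 and -1.79 for Tor1aip2.

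The other 4, chosen in the same way, also had no overlap between WT and KO, which adds no support. Exon 10 of Tbrg4, a mitochondrial RNA gene, had 0.64 and 0.27 against -0.92 and -0.78, and exon 6 of the splicing factor gene Srsf7 had 0.70 and 0.74 against -1.03 and -0.26. Exon 4 of the Wnt receptor gene Fzd3 had 1.18 and 1.13 against 0.14 and -0.27. Exon 14 of Ctnnd1, encoding p120 catenin, had 1.30 and 2.04 against 0.55 and -0.17. With the centred log2 ratio their differences were -0.25 for Tbrg4, -0.78 for Srsf7, -1.02 for Fzd3 and -0.79 for Ctnnd1, against -1.30, -1.37, -1.21 and -1.48 with the winscore.

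The 6 exons highest in KO had the same adjusted p of 0.761, and several rested on little IP coverage. Exon 6 of Trnt1, the tRNA CCA-adding enzyme gene, had 0.59 and 1.58 for WT and 3.26 and 2.64 for KO, but its IP coverage was 0 in both KO libraries and at most 0.0778 in WT, so its score is that of the input. Exon 4 of Tmcc2 had -0.43 and -0.83 against 0.72 and 0.58, with an IP coverage of 0 in KO replicate 1. Exon 2 of the tRNA thiolation gene Ctu1 had -1.57 in both WT pairs against 0.67 and 0.02, on an IP coverage of 0.25 to 1.00.

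IP coverage was present behind the other 3. Exon 2 of Zfp397 had 0.63 and 0.72 for WT and 2.77 and 2.16 for KO, with IP coverage of 4.54 and 2.98 against 10.4 and 5.40. Exon 3 of Rab11fip1, a Rab11 effector gene, had 0.16 and 0.20 against 1.34 and 2.14, and IP coverage of 2.49 and 2.02 against 5.95 and 6.92. Exon 5 of Dido1 had -0.87 and -1.30 against 0.13 and 0.27. With the centred log2 ratio all 6 differences were smaller, at 0.06 for Trnt1, 0.11 for Tmcc2, 0.41 for Ctu1, 1.02 for Zfp397, 0.92 for Rab11fip1 and 0.59 for Dido1, against 1.87, 1.28, 1.92, 1.79, 1.56 and 1.28 with the winscore. After the winscore of the gene's short internal exons was subtracted, the difference was 0.59 for Zfp397, 0.71 for Rab11fip1 and 0.84 for Dido1.

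The first pair was lower than the WT pairs in 79.6% of the long internal exons, by a median of 0.44, in 82.8% of the long 5′-end exons, in 76.0% of the long 3′-end exons and in 57.8% of the short internal ones. It is 1 library, so no test of that difference is possible. Its input also differed in shape: the median long internal exon lay 0.32 (log2) above its gene's median input there and -0.06 to -0.09 from it in the other 4 inputs, and the part of this in the result was not tested.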

How the data were processed

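J1 ES cell m6A IP and input libraries were analysed from the deposited window tables. The submitters' processing notes name TopHat 1.1.3 and the mm9 mouse build, per the labels, without their roles. The sources used here do not state the gene model, read filters, strand handling or coordinates, so overlapping genes and close copies are uncertain, and exons may be merged over isoforms. Per the file headers, the authors deposited coverage (signal) per window, its median over the gene and a log2 winscore. Recomputing log2(((IP + 1)/(IP median + 1))/((input + 1)/(input median + 1))) gave the deposited winscore in all 1510223 windows to within 4.97e-14. Coverage is scaled by an unstated factor, so no count test was used and relative depth came from the smallest step. RPKM values per gene were deposited by the authors with no stated denominator; 2 WT columns were used and 3 were not.

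An exon's value was its mean winscore. Libraries were compared by exact permutation tests. KO and WT exons of 3 or more windows were fitted together with limma 3.58.1 under R 4.3.3 (lmFit, trended eBayes; adjusted by Benjamini and Hochberg and called at 0.05), and the code was tested on simulated data. That test returned the simulated sizes and made no calls for KO against WT. A first simulation, which took each exon's observed SD as its true SD, made none either. Strand came from RefSeq (GRCm38.p6) by symbol for 1878 of the 2538 exons, and 1849 of 2022 gene names equal a current symbol, 1832 of them protein coding. The 30 long internal exons with equal input coverage under another gene name were kept. Python 3.11.15, numpy 2.4.6, pandas 2.3.3, scipy 1.17.1 and matplotlib 3.10.9 were used.

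Named exons were the 10 with the highest lowest library and the 4 with the lowest highest library (RPKM at least 5), the 6 with the smallest limma p in each direction, the 5 longest, up to 6 per gene list by RPKM with any Tet gene, and the genes with most long internal exons. The members and lists were chosen with earlier results of these data known. Alternatives covered the expression filter, exon length and ends, the measure, low input, empty IP, the added constant, run settings and each library left out.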

Additional observations from a re-analysis of the deposited data

How the results depend on the processing

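The within-gene contrasts kept their direction under every alternative run. Long minus short internal exons gave at most 2.33, with the log2 ratio of IP to input, and leaving out each library in turn gave 1.55 to 1.69. Long internal minus highest-numbered exons gave 0.864 to 0.937 and minus exon 1 0.865 to 0.950 on leaving out each library, where the smallest possible exact permutation p is 0.125. The KO minus WT difference of library medians had no stable sign: it was 0.05 as reported, 0.48 for the highest window of each exon, -0.17 for the centred log2 ratio, -0.13 for winscore centred on short internal exons and -0.27 for long minus short exons within genes. Leaving out each library gave -0.078 (without WT replicate 1) to 0.18. No exon was called between KO and WT in any of the fits, and with the replicate number as a block the count was also 0. The labels do not say whether a shared replicate number pairs the libraries. Same-numbered deviations correlated at 0.0136 over 85491 exons, so no shared deviation was seen. This cannot settle how the libraries were prepared. Exons above their gene's median in WT numbered 886 as reported (4.91% of all exons), 2204 with the highest window (29.2%), 510 of 833 with input coverage of at least 5 in every library (12.5%), and 0 with 0.5 added instead of 1. With the centred log2 ratio, 2110 (18.8% of all exons) were above the short internal exons, which is another reference. Of the alternative WT values of single named exons, 166 moved by more than the spread between replicates and 32 did not. Leaving out each library gave 0 to 1489. The count is therefore no estimate of how many exons were methylated, and the cause of its moves was not tested. Runs in the first IP numbered 2191 as reported and 1315 at a winscore of 3. The fits with empty IP removed, the 0.5 constant, the highest window and the gene's short exons subtracted in the WT count, the exon ends by strand and the exons of equal input coverage were chosen after seeing the data. The number of IP libraries and their low depth limit every KO comparison.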
